A study of Mus musculus with 5 samples.

Results

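Glo1, the other 3 genes of the chromosome 17 stretch that varies in copy number among laboratory mouse strains (Btbd9, Dnahc8 and Glp1r) and Hagh were followed across 5 RNA-seq libraries of haematopoietic stem cells. These 5 genes were looked up by symbol among the 33894 named entries of the deposited files. The members were chosen by the counts of Glo1, which were lower in every library labelled dKO, and by their relation to it: Btbd9, Dnahc8 and Glp1r for where they lie, and Hagh because its enzyme acts next in the same pathway. The counts and levels of Glo1 by genotype are therefore given as a description, with no test. Of the 5 genes, 4 had enough counts to enter the fit over all genes, and Glp1r did not.

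The glyoxalase system removes methylglyoxal, a reactive aldehyde formed as a by-product of glycolysis that modifies proteins and DNA. Methylglyoxal reacts with glutathione, glyoxalase I (the product of Glo1) turns the adduct into S-lactoylglutathione, and glyoxalase II (the product of Hagh) splits this into lactate and free glutathione. In several inbred strains of mice an extra copy of a chromosome 17 segment holds Glo1 and all or part of its neighbours, and such strains are known for higher Glo1 transcript levels in brain. The labels give no strain background, and gene copy number was not measured here, so its part in any difference was not tested.

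The cells were CD34-Flt3- LSK cells, a bone marrow fraction rich in long-term haematopoietic stem cells (lineage negative, Sca-1 positive, c-Kit high), sorted from 8-week-old mice. Of the libraries, 3 were labelled Lrp5/6 dKO, carrying Vav-cre and floxed alleles of both Lrp5 (fl/fl) and Lrp6 (fl/fl), and 2 were labelled WT. Vav-cre is active throughout the blood lineage. The labels give Cre for the dKO group alone, so an effect of Cre itself cannot be told apart from that of the floxed alleles. Each library was made by Smart-seq2, a full-length amplification method, from RNA of 6000 cells. The labels do not say whether the libraries of a group came from separate mice, so p-values measure the spread between these libraries, which may be partly technical. In bulk RNA, fewer cells of a type and less RNA per cell cannot be told apart.

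Total counts were 25216810, 16028512 and 26869348 in the libraries labelled dKO, and 26242672 and 28027458 in WT. Counts of the targeted genes did not separate the groups. Lrp6 had 790, 260 and 767 counts in the libraries labelled dKO, against 660 and 232 in WT. Lrp5 had 37, 2 and 71 counts in the libraries labelled dKO, against 7 and 32 in WT. These counts cover whole genes, so a loss of the floxed exons alone would not be seen in them. Summed stem cell markers were 2118 to 2173 CPM (counts scaled to a common library size) in the libraries labelled dKO and 1023 to 1473 CPM in WT, with all 10 detected and Kit the most abundant. The 6 granulocyte progenitor markers summed to 11074 to 15747 CPM in the libraries labelled dKO, against 6443 CPM in WT replicate 1 and 42203 CPM in WT replicate 2, which stood apart. Of the 6 mast cell and basophil markers, 5 were higher in every library labelled dKO, an order found in 13.7% of all genes tested. Mcpt8, the most abundant of them over all libraries, overlapped between the groups, with a log2 fold change of -0.17. The list summed to 463 to 1145 CPM in the libraries labelled dKO and 274 to 452 CPM in WT. The summed erythroid markers were at 155 to 178 CPM in the libraries labelled dKO and 95.4 to 101 CPM in WT. Car1 alone stood at 69.9, 58.2 and 62.7 CPM in the libraries labelled dKO, against 6.57 and 6.45 CPM in WT. Hba-a1, the most abundant over all libraries, overlapped at 37.7, 53.1 and 74.8 CPM labelled dKO, against 64 and 63.8 CPM in WT. Of the 6 erythroid markers, 4 were higher and 2 lower in the libraries labelled dKO. Macrophage and dendritic markers summed to 555 to 835 CPM in the libraries labelled dKO and 279 to 453 CPM in WT. This sum was mostly Flt3 and Cd74, with log2 fold changes of 0.91 and 1.13. Of the 6 markers, 4 were higher and 2 lower in the libraries labelled dKO, the lower ones being Cd68 (-0.42) and Emr1 (-0.57). B cell markers summed to 105 to 266 CPM in the libraries labelled dKO and 99.7 to 141 CPM in WT. Ebf1, Cd79a and Vpreb1 were higher in every library labelled dKO (log2 fold changes 3.99, 2.09 and 1.86), as were 13.7% of all genes tested. The more abundant Cd79b was at -0.08. The T and NK cell sum, 565 to 688 CPM in the libraries labelled dKO and 708 to 1881 CPM in WT, was nearly all Nkg7. Cd3g had 0, 178 and 4 counts in the libraries labelled dKO, against 21 and 1 in WT. Il7r had 74, 1 and 206 counts in the libraries labelled dKO, against 53 and 0 in WT. Their log2 fold changes, 3.09 (SE 2.74) and 1.78 (SE 2.28), thus rest on few counts that overlap between the groups. Cd3e was at 0 in all libraries. None of the markers passed the test described below, and those other than the most abundant of a list were named after their values were seen. The part of these marker differences in the levels below was not tested, except by leaving out WT replicate 2.

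The transcript of Glo1 has a near-identical copy, which bears on how its reads could be counted. Gm13443 is a processed pseudogene on chromosome 2, a reverse-transcribed copy of the Glo1 message. In GENCODE M21 transcripts it matches 552 of the 555 coding bases of Glo1 (99.5%). None of the 3 differences changes any of the 184 amino acids. A read that covers none of them cannot be told apart between the gene and the copy. The sources used here do not say how such reads were assigned, so the counts of Glo1 and Gm13443 are uncertain one by one, and their sum is given as well.

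Glo1 (ENSMUSG00000024026.6, chromosome 17) had 5622, 3041 and 5295 counts in the libraries labelled dKO, against 12814 and 18680 in WT. Scaled to library size, these are 207, 184 and 196 CPM in the libraries labelled dKO, against 487 and 748 CPM in WT. The libraries labelled dKO lay close together and all below both WT libraries, which differed from each other by more than the whole spread of the dKO group. The means were 196 ± 11.7 CPM (SD) in the 3 libraries labelled dKO and 618 ± 185 CPM (SD) in the 2 WT libraries, 3.16-fold higher in WT. The fitted log2 fold change was -1.66.

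The lower WT library stood 2.35-fold above the highest library labelled dKO. Among the 873 tested genes with a mean of at least 100 CPM that were lower in every library labelled dKO, Glo1 ranked 1 by that ratio, which rests on the values it was chosen for. Next came Asns, an asparagine synthetase, at 2.13, then the nuclear pore gene Nup93 at 1.98 and the histone acetyltransferase gene Hat1 at 1.88. These 3 were named after their values were seen. Genes with a lower mean can stand above Glo1 by this ratio, as did Fam102b at 2.77. Across all 13696 genes tested, 2142 (15.6%) had every library labelled dKO below every WT library and 1879 (13.7%) the opposite. Glo1 was chosen for this order, so nothing follows from its place among them.

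On the deposited TPM, transcript levels that correct for length, Glo1 stood at 221, 199 and 191 TPM in the libraries labelled dKO, against 478 and 656 TPM in WT. It ranked 831, 978 and 968 among all genes in the libraries labelled dKO, against 337 and 231 in WT. A TPM is relative to the rest of its library, and on this scale too the groups did not overlap. The log2 fold change on log2(TPM + 1) was -1.46.

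**Figure D1:**
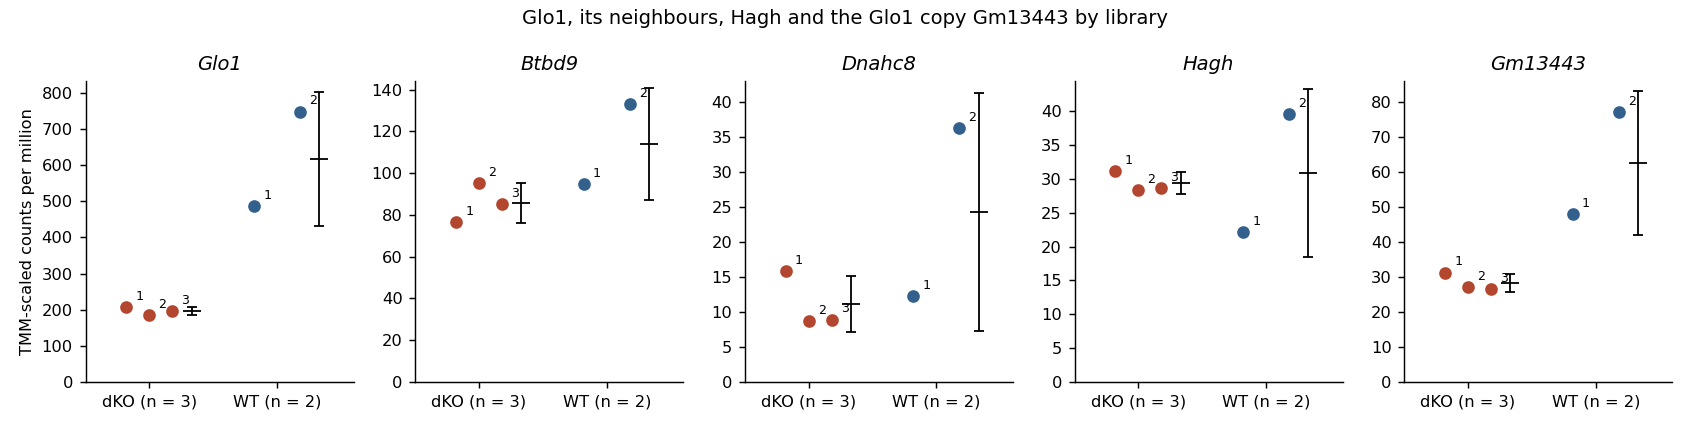
TMM-scaled CPM of Glo1, Btbd9, Dnahc8, Hagh and the Glo1 copy Gm13443 in each library (points, numbered by replicate), with the mean and SD of each group beside them. The 3 libraries labelled dKO lie below both WT libraries for Glo1 (184 to 207 CPM labelled dKO, 487 to 748 CPM in WT) and Gm13443 (26.5 to 31.3 CPM labelled dKO, 48 to 77.2 CPM in WT), and the groups overlap for Btbd9, Dnahc8 and Hagh.

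The copy had a smaller difference in the same direction. Gm13443 had 850, 450 and 715 counts in the libraries labelled dKO, against 1262 and 1926 in WT. That is 31.3, 27.2 and 26.5 CPM in the libraries labelled dKO, against 48 and 77.2 CPM in WT. Every library labelled dKO was thus below every WT library, an order found in 15.6% of all genes tested. Its log2 fold change was -1.14 (95% interval -1.89 to -0.39), and with an edgeR adjusted p = 0.434 it did not pass the quasi-likelihood test, which used a Benjamini-Hochberg threshold of 0.05. Without WT replicate 2 it was -0.76. The counts of Gm13443 may hold Glo1 reads, and Glo1 was chosen by its counts. The interval and p-value of the copy are therefore a description, not a separate test.

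Gm13443 took a larger share of the pair's counts in the libraries labelled dKO. Of the counts assigned to either, 13.1% (95% Wilson interval 12.3 to 14), 12.9% (11.8 to 14) and 11.9% (11.1 to 12.7) fell on Gm13443 in the libraries labelled dKO. In WT these shares were 8.97% (8.5 to 9.45) and 9.35% (8.96 to 9.75). The intervals treat counts as independent, which amplified reads are not, so they do not cover the full counting error. The share holds the Glo1 counts, which were chosen for being lower in every library labelled dKO, so it is a description only. Summed over the pair, levels were 239, 211 and 223 CPM in the libraries labelled dKO, against 535 and 826 CPM in WT. With these sums in place of the Glo1 counts, the fitted log2 fold change was -1.60, compared with -1.66 for Glo1 alone. On TPM the copy weighed more, at 48.9%, 47.2% and 42.8% of the Glo1 level in the libraries labelled dKO. In WT it was at 31.3% and 31.7%. The pair summed to 329, 293 and 273 TPM in the libraries labelled dKO, against 628 and 864 TPM in WT. By the means, the summed TPM were 2.5-fold higher in WT. Other ways of assigning the shared reads were not tested.

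Of the other genes of the chromosome 17 stretch, Btbd9 and Dnahc8 were detected and Glp1r was not. None of them passed the test. Across all genes tested edgeR called 0 higher (0%) and 0 lower (0%) in the libraries labelled dKO at an adjusted p under 0.05. At an unadjusted p under 0.05 it gave 677 higher (4.94%) and 711 lower (5.19%), and DESeq2 called 222 higher (1.61%) and 113 lower (0.821%) at an adjusted p under 0.05. With edgeR calling nothing in either direction, a missed threshold does not show that a member did not differ.

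Btbd9 (ENSMUSG00000062202.6) encodes a BTB domain protein, an adaptor type that recruits cullin 3 ubiquitin ligases, and lies next to Glo1. It had 2074, 1578 and 2301 counts in the libraries labelled dKO, against 2498 and 3316 in WT. Scaled, these were 76.5, 95.4 and 85.3 CPM in the libraries labelled dKO, against 94.9 and 133 CPM in WT. Replicate 2 labelled dKO reached the level of WT replicate 1, so the groups overlapped, and the distance between the means came mostly from WT replicate 2. The log2 fold change was -0.41 (SE 0.24, 95% interval -0.98 to 0.16, edgeR adjusted p = 0.619), with -0.15 without WT replicate 2 and -0.20 on log2(TPM + 1).

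Dnahc8 (ENSMUSG00000033826.8), called Dnah8 in the reference annotation, encodes an axonemal dynein heavy chain, a motor of sperm tails and cilia. It had 429, 144 and 240 counts in the libraries labelled dKO, against 324 and 906 in WT. Scaled, it lay at 15.8, 8.7 and 8.89 CPM in the libraries labelled dKO, against 12.3 and 36.3 CPM in WT. WT replicate 1 fell within the range of the libraries labelled dKO, and WT replicate 2 stood above all others. The log2 fold change was -1.12 with an interval that spans zero (SE 0.59, 95% interval -2.50 to 0.25, edgeR adjusted p = 0.569), with -0.15 without WT replicate 2 and -0.45 on log2(TPM + 1). Per length the gene was low, at 1.49 ± 0.636 TPM (SD) in the 3 libraries labelled dKO and 2.49 ± 1.44 TPM (SD) in the 2 WT libraries.

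Glp1r (ENSMUSG00000024027.6), the receptor of the incretin hormone GLP-1, had 0 counts in all 5 libraries. A count of 0 allows up to 3 counts in a library, which is 0.112 to 0.187 CPM in the libraries labelled dKO and 0.107 to 0.114 CPM in WT. Its part in the stretch therefore gives no value to compare.

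The genes outside the stretch give a local background. In the reference gene order the stretch runs Btbd9, Glo1, Dnahc8, Glp1r, between Zfand3 on one side and Abcg1 as the nearest tested gene on the other. Of the 10 nearest tested genes on each side, 11 were higher and 9 lower in the libraries labelled dKO, with a median log2 fold change of 0.02. None passed the test. In 4 of these 20 genes every library labelled dKO was below every WT library, and in 3 every one was above, beside 15.6% and 13.7% of all genes. Over all 674 tested genes of chromosome 17 the median was 0.06 with 312 lower, and over all 13696 genes it was 0.04 with 6549 lower.

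The 3 nearest genes on the Btbd9 side were 1110021J02Rik, Mdga1 and Zfand3, with log2 fold changes of 1.57, 0.63 and 0.03. Mdga1 encodes a membrane-anchored adhesion protein and Zfand3 a zinc finger protein. The 3 nearest on the Glp1r side were Abcg1 at 0.17, Tmprss3 at 2.28 and Ubash3a at -1.14. Abcg1 is a sterol exporter, Tmprss3 a transmembrane serine protease and Ubash3a a regulator of T cell receptor signalling. Abcg1, the most abundant of these 6, stood at 365, 311 and 709 CPM in the libraries labelled dKO, against 511 and 311 CPM in WT. The edgeR adjusted p-values of the 6 were between 0.492 and 0.996. With single libraries left out, the values ran from 0.66 to 2.09 for 1110021J02Rik (0.31 on log2(TPM + 1)), 0.10 to 1.27 for Mdga1 and -1.63 to -0.40 for Ubash3a, and the directions for Zfand3 and Abcg1 turned. The values were lowest for 1110021J02Rik without dKO replicate 2, for Mdga1 without dKO replicate 1, and Ubash3a was at -0.40 without WT replicate 2.

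**Figure D2:**
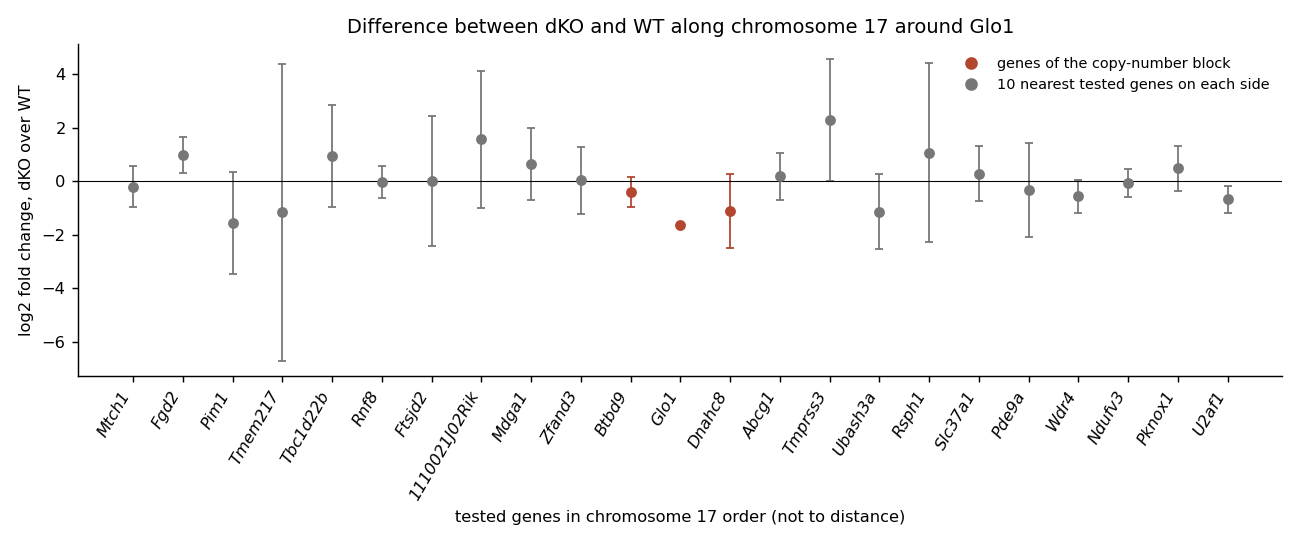
Log2 fold change, libraries labelled dKO over WT, with 95% intervals, for the tested genes of the copy-number stretch (red) and the 10 nearest tested genes on each side (grey), in chromosome order. Glo1, chosen for its difference, is drawn without an interval. Glo1 stands at -1.66, Btbd9 at -0.41 and Dnahc8 at -1.12, and the 20 outer genes scatter from -1.57 to 2.28 with a median of 0.02.

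The transcripts of glyoxalase II did not separate the groups. Hagh (ENSMUSG00000024158.10), which lies on chromosome 17 with 115 tested genes between it and Glo1, had 845, 470 and 771 counts in the libraries labelled dKO, against 581 and 989 in WT. Scaled, it stood at 31.2, 28.4 and 28.6 CPM in the libraries labelled dKO, against 22.1 and 39.6 CPM in WT. All 3 libraries labelled dKO lay between the WT libraries. The means were 29.4 ± 1.54 CPM (SD) in the 3 libraries labelled dKO and 30.8 ± 12.4 CPM (SD) in the 2 WT libraries. The log2 fold change was -0.07 (SE 0.38, 95% interval -0.95 to 0.81, edgeR adjusted p = 0.98), with -0.44 without WT replicate 1 and 0.41 without WT replicate 2.

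In CPM all 4 detected members were highest in WT replicate 2, whereas in TPM Hagh was highest in replicate 2 labelled dKO (44.8 TPM, against 40.8 TPM in WT replicate 2). Ratios within a library were set beside the levels. Glo1 TPM were 5.75, 4.44 and 6.43 times those of Hagh in the libraries labelled dKO, against 19.1 and 16.1 times in WT. The mean ratios were 5.54 ± 1.01 (SD) in the 3 libraries labelled dKO and 17.6 ± 2.11 (SD) in the 2 WT libraries. The WT libraries, which differed widely in the level of Glo1, were close in this ratio. Against Btbd9, the Glo1 ratio was 10.2, 7 and 8.79 in the libraries labelled dKO, and 18.8 and 22 in WT. Both ratios separate the groups, and both hold Glo1, which was chosen for doing so. With Gm13443 TPM added to those of Glo1, the ratio to Hagh was 8.56, 6.54 and 9.19 in the libraries labelled dKO. In WT it was 25 and 21.2, and this ratio holds Glo1 as well.

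**Figure D3:**
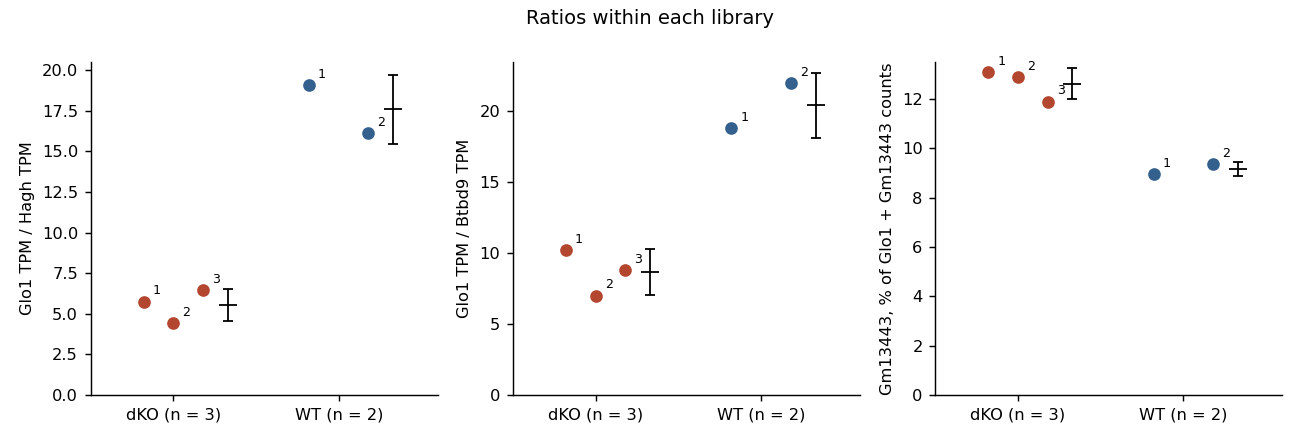
Ratios within each library, with the mean and SD of each group: Glo1 to Hagh in TPM (left), Glo1 to Btbd9 in TPM (middle), and Gm13443 as a percent of the counts of Glo1 and Gm13443 together (right). The first is 4.44 to 6.43 in the libraries labelled dKO against 16.1 to 19.1 in WT. The second is 7 to 10.2 in the libraries labelled dKO against 18.8 to 22 in WT. The third is 11.9% to 13.1% in the libraries labelled dKO against 8.97% to 9.35% in WT. Each of them holds Glo1, which was chosen for its difference.

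Per length, Glo1 was the most abundant of the 5 genes in every library. Hagh averaged 37.7 ± 7.57 TPM (SD) in the 3 libraries labelled dKO and 33 ± 11.1 TPM (SD) in the 2 WT libraries. Btbd9 averaged 24 ± 3.85 TPM in the libraries labelled dKO and 27.6 ± 3.03 TPM in WT. Hagh was above Btbd9 in every library labelled dKO, and in WT replicate 1 they were nearly equal, at 25.1 and 25.5 TPM. Dnahc8 was below both in every library.

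The rest of the pathway was read from lists of genes for methylglyoxal handling, glutathione supply and triose glycolysis. No gene of any of these lists passed the test, and their medians were 0.07, 0.04 and -0.26, beside 0.04 for all genes tested.

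Of the 12 genes that act on methylglyoxal or on glycated proteins, 10 were tested, with 6 higher and 4 lower in the libraries labelled dKO. Glod5 and Akr1b8, named after their values were seen, had 0 counts everywhere. The 4 with the smallest p-values were the 4 lower ones, and in each of them every library labelled dKO lay below every WT library in CPM, an order found in 15.6% of all genes tested. On TPM, where the median of all genes was 0.14, Glod4 stood at 0.00 and Akr1b3 at 0.03, so the direction for these 2 depends on the scale. Park7, which encodes DJ-1, a protein for which a methylglyoxal-removing activity has been described, stood at 441, 323 and 527 CPM in the libraries labelled dKO, against 700 and 760 CPM in WT. Its log2 fold change was -0.76 (95% interval -1.29 to -0.24, edgeR adjusted p = 0.434). Glod4, a glyoxalase domain gene, stood at 174, 180 and 177 CPM in the libraries labelled dKO, against 208 and 214 CPM in WT, a log2 fold change of -0.25. The aldose reductase gene Akr1b3 was at -0.20 and Fn3krp, a ketosamine kinase gene of protein deglycation, at -0.48.

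Glutathione is used and returned by the glyoxalases. Of its 14 supply genes 12 were tested, with 7 higher and 5 lower in the libraries labelled dKO. The smallest p-values belonged to Ggt5, a gamma-glutamyltransferase gene (log2 fold change 0.81), and the exporter gene Abcc1 (0.65). Next came glutathione reductase Gsr (-0.56) and the cystine importer gene Slc7a11 (-3.49). The edgeR adjusted p-values of these genes were 0.528 or above. Abcc1 was at 0.37 without WT replicate 2 and 0.98 without WT replicate 1. Ggt5 stood at 35.2, 23.9 and 35.6 CPM in the libraries labelled dKO, against 16.5 and 19.5 CPM in WT. Every library labelled dKO was thus above every WT library, an order found in 13.7% of all genes tested. Gsr and Slc7a11 were high in WT replicate 2 alone, and without it their values were 0.17 and 1.16. Both genes of glutamate-cysteine ligase, the first step of synthesis, overlapped between the groups, with Gclc at 12.5 to 18.4 CPM in the libraries labelled dKO and 12.5 to 13.5 CPM in WT. Gclm stood at 97.6 to 210 CPM in the libraries labelled dKO and 124 to 190 CPM in WT. These 2 genes were named after their values were seen.

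Triose phosphates are the main source of methylglyoxal. Of the 8 genes around them, all tested, 2 were higher and 6 lower in the libraries labelled dKO. Pgk1, phosphoglycerate kinase, stood at 249, 275 and 311 CPM in the libraries labelled dKO, against 379 and 540 CPM in WT, a log2 fold change of -0.72. Tpi1, which interconverts the triose phosphates, stood at 564, 520 and 478 CPM in the libraries labelled dKO, against 687 and 853 CPM in WT, at -0.57. Every library labelled dKO lay below every WT library in 3 of the 8 genes (Pgk1, Tpi1 and Gapdh) and above in 1 (Aldoc). Over all genes tested, these orders were found in 15.6% and 13.7%. The differences of Pgk1 and Tpi1 were smaller than that of Glo1, which was chosen for its difference. Gapdh was at -0.48 and the aldolase gene Aldoc at 1.31. The edgeR adjusted p-values of these 4 were 0.434 to 0.528. Without WT replicate 2 the value for Pgk1 was -0.45, that for Gapdh -0.10 and that for Aldoc 0.87, and Aldoc was at 1.92 without WT replicate 1.

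**Figure D4:**
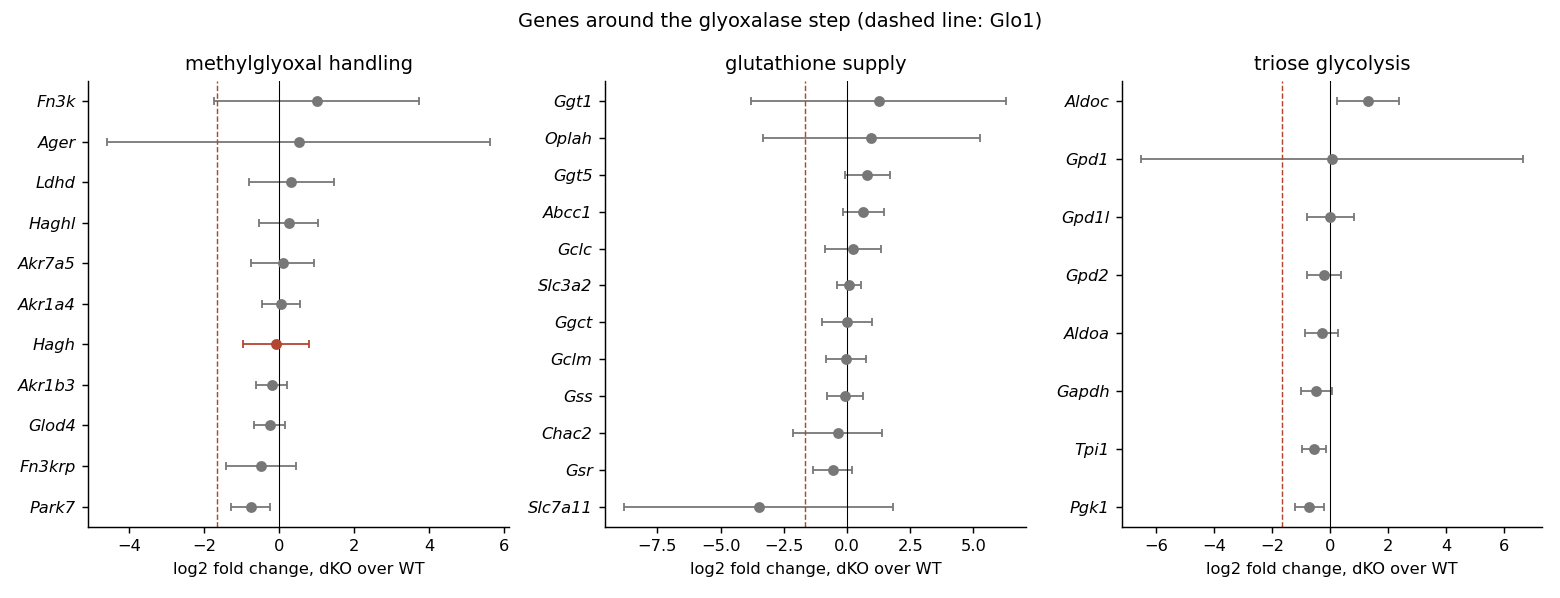
Log2 fold change, libraries labelled dKO over WT, with 95% intervals, for the tested genes of methylglyoxal handling (left, with Hagh in red), glutathione supply (middle) and triose glycolysis (right), each panel on its own scale. The dashed line marks Glo1 at -1.66.

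Other genes known to differ in copy number or to carry a null allele among laboratory strains were looked up in the same way. Of 6 such genes 5 were tested, with 2 higher and 3 lower in the libraries labelled dKO and a median of -0.30. Alad, an enzyme of haem synthesis whose gene is duplicated in some strains, stood at 186, 191 and 183 CPM in the libraries labelled dKO, against 323 and 218 CPM in WT. All 3 libraries labelled dKO were below WT, an order found in 15.6% of all genes tested. The log2 fold change was -0.54 (95% interval -1.03 to -0.04, edgeR adjusted p = 0.471), and -0.23 without WT replicate 1. Entpd4, a Golgi nucleotidase gene, was at 0.49, and Ide and Fgfbp3, both on chromosome 19, were at -0.36 and -0.30. Without WT replicate 2 Ide was at -0.11, and without dKO replicate 3 Fgfbp3 was at -0.12. The class II gene H2-Ea, listed as H2-Ea-ps and named after its values were seen, had 0 counts in every library.

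The genes whose profile over the 5 libraries came nearest to that of Glo1 were found by the root mean square (RMS) difference of centred log2 CPM among 8888 genes with a mean log2 CPM of at least 3. The nearest was 5730437N04Rik, at an RMS difference of 0.0948. This gene also lies on chromosome 17, with 233 tested genes between it and Glo1. It stood at 55.6, 51.8 and 50.8 CPM in the libraries labelled dKO, against 118 and 176 CPM in WT, the same shape as Glo1 at a lower level. Next came the lipopolysaccharide-binding protein gene Lbp at 0.177, the spindle checkpoint kinase gene Bub1 at 0.187, Fam102b at 0.193 and the ribonuclease P subunit gene Rpp30 at 0.205. Gm13443 came at rank 10, at 0.263. Like Glo1, the 5 nearest genes were lower in every library labelled dKO, which follows from choosing them by their likeness to it.

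The profiles nearest to Btbd9 were those of Polr2g, an RNA polymerase II subunit gene, at 0.0322, the translation factor gene Eif5a at 0.0395, Naa38 at 0.0465, the threonyl-tRNA synthetase gene Tars at 0.0491 and the respiratory complex I gene Ndufa10 at 0.0502. Nearest to Hagh were the helicase gene Ddx55 at 0.0445, the kinase gene Tesk2 at 0.0583, Mtmr12 at 0.0585, the sialidase gene Neu1 at 0.0656 and the transporter gene Slc15a4 at 0.0681. No gene stands on more than one of these 3 lists of 5.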

How the data were processed

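RNA of sorted CD34-Flt3- LSK cells was sequenced in 5 Smart-seq2 libraries, 3 labelled dKO and 2 labelled WT. For each library the authors deposited unnormalized counts per gene and, separately, TPM, scaled to transcript length and library size. Per the submitters' processing notes, the build was mm9 and the tools were TopHat2 2.1.1, RSEM 1.2.31, HTSeq and DESeq2, with FastQC 0.11.5 and Trimmomatic; the sources used here do not say which tool made which values or how reads matching several genes were treated. Smart-seq2 in its standard form does not mark strand. Of 33924 entries per file, 30 name no gene (0.216% to 0.269% of counts) and were left out of totals and tests.

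Counts were fitted with edgeR 4.0.16 in R 4.3.3 (TMM scaling, filterByExpr, robust quasi-likelihood test, all 5 libraries, no covariate), with Benjamini-Hochberg adjustment over 13696 genes and a threshold of 0.05. CPM are TMM-scaled. The biological coefficient of variation was 67.9%. The test was also run on simulated counts with known changes, their means and dispersions taken from these data. The outcome of that run is not reported here. Libraries of a group differed far beyond sampling noise (chi-square per degree of freedom 99.6 to 162). Totals of 16028512 to 28027458 counts per library put 3 counts at 0.107 to 0.187 CPM. Gene order and the match of the Glo1 copy come from GENCODE M21 (GRCm38), another build than the files', so no coordinates are given; the sequences behind that match are not reported here.

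The members and lists were chosen with earlier results of these data known. Genes named are the members, near-identical copies, up to 4 tested genes per list by smallest p, the 3 nearest tested neighbours on each side, the 5 nearest profiles of Glo1, Btbd9 and Hagh, and the top marker of a list; the text marks any others as named after seeing them. Alternatives were DESeq2 1.42.0, limma-voom (limma 3.58.1), RLE and upper quartile scaling, no filter, a filter of 5 CPM in 2 libraries, TPM with a pseudocount of 1 or 0.1 in limma, a replicate block, each library left out, and, chosen after seeing the data, the counts of Gm13443 added to those of Glo1.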

Additional observations from a re-analysis of the deposited data

How the results depend on the processing

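The log2 fold change of Glo1 stayed below zero under every alternative run, from -1.94 without WT replicate 1 to -1.32 without WT replicate 2, with -1.46 on TPM. Those of Btbd9 (-0.64 to -0.15) and Dnahc8 (-1.71 to -0.15) also kept their direction in the fits with a library left out. The Glo1 to Hagh ratio stayed at -1.78 to -1.53 on the log2 scale. Glo1 was chosen for being lower in every library labelled dKO, so leaving out a library could not turn its direction. The ratio holds Glo1 as well, so neither result is a test. Hagh, close to zero, changed sign with limma-voom (0.02), on TPM (0.21 with either pseudocount), with the replicate block (0.01) and between leave-one-out fits (-0.44 to 0.41). TPM moved the median of all genes by 0.10. Btbd9, Dnahc8 and Hagh did not pass the threshold under any alternative.

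Genes called higher and lower in the libraries labelled dKO numbered 222 and 113 with DESeq2, 5 and 3 without the filter, 3 and 2 on TPM with a pseudocount of 1, 2 and 0 with 0.1, and 0 to 2 and 0 to 3 with a library left out, both highest without WT replicate 1. The median of the block's neighbours was 0.29 and 0.30 on TPM with a pseudocount of 1 and 0.1, and -0.15 to 0.40 with a library left out. That of methylglyoxal handling was -0.13 with limma-voom, -0.05 with the 5 CPM filter, 0.17 on TPM with a pseudocount of 1, and -0.09 to 0.11 with a library left out. That of glutathione supply was 0.02 to 0.21 and that of triose glycolysis -0.47 to -0.10 with a library left out. Of single genes, Glod4 was at 0.00 and Akr1b3 at 0.03 on TPM, Zfand3 at -0.11 with limma-voom and -0.34 to 0.50 with a library left out, Abcg1 at -0.28 to 0.56, and Gsr, Slc7a11 and Mpo turned to 0.17, 1.16 and 1.12 without WT replicate 2. Gsr otherwise reached -1.04, Slc7a11 -4.46 and Mpo -1.53. The causes were not tested.

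Only replicates 1 and 2 are shared by the groups, and deviations of same-numbered libraries from their group means correlated at 0.03 and 0.05. With 2 WT libraries, the WT deviations mirror each other. These values therefore cannot decide whether the numbers pair the libraries. With the replicate block, Glo1 was at -1.63, Btbd9 at -0.40, Dnahc8 at -0.85, Abcg1 at -0.24 and the methylglyoxal median at -0.05, and 1 gene was called higher and 0 lower. Depth limits Glp1r alone among the members, at 0.107 to 0.187 CPM per library for 3 counts.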

Other observations

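The profiles nearest to that of Dnahc8, chosen for naming after their values were seen, were those of Creld2 (RMS difference 0.166), Hsp90b1 (0.189), Gmppb (0.194), Gltpd1 (0.214) and Hspa5 (0.227). Hspa5 and Hsp90b1 encode chaperones of the endoplasmic reticulum, and Creld2 a protein of the same compartment. Hspa5 stood at 2124, 1760 and 1395 CPM in the libraries labelled dKO, against 1871 and 4639 CPM in WT. Like Dnahc8, these genes were highest in WT replicate 2, which follows from choosing them by their likeness to it. That library also had the highest level of Mpo, a granule enzyme of myeloid progenitors, and a link between them was not tested. Mpo was at 6782, 9684 and 6031 CPM in the libraries labelled dKO, against 3447 and 21486 CPM in WT.

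Around Hagh, 8 of the 20 nearest tested genes were higher and 12 lower in the libraries labelled dKO, with a median log2 fold change of -0.19. In 7 of these genes every library labelled dKO lay below every WT library, and in 1 above, beside 15.6% and 13.7% of all genes tested. None passed edgeR's quasi-likelihood test.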
